A study of Mus musculus with 3 samples.

Results

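Metallothioneins and a set of genes induced by glucocorticoid hormones were followed in lungs whose mice had received tumour cells under the skin of the back. The 10 genes were Mt1, Mt2, Fkbp5, Zbtb16, Tsc22d3, Sgk1, Cdkn1a, Dusp1, Angptl4 and Klf9, out of 8251 genes that a single symbol in the platform's probe annotation names. They were chosen from earlier results on the same arrays, and therefore on the signals given below, so all values that follow are a description and carry no test. Every probe set whose only symbol is one of these genes was used, 16 in all, and 13 of them lay above the floor of 23.6 on at least 1 array. The floor is the 40th percentile of all scaled signals, and dimmer values were set to it.

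The 3 samples were lung RNA of mice bearing B16 tumours (B16 is a mouse melanoma line), lung RNA of mice bearing LLC tumours (LLC cells come from Lewis lung carcinoma of the mouse) and lung RNA of normal mice as control; they are called the B16 lung, the LLC lung and the control lung. Each was hybridised to 1 Affymetrix mouse expression array. Per the series description, the lungs were to show the response to a primary tumour ahead of any arrival of tumour cells; the sources used here do not give the age, sex, strain or number of mice behind each sample. With 1 array per group there is no replicate and no p-value, and each difference describes these arrays and not the conditions.

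Glucocorticoids such as corticosterone bind the glucocorticoid receptor (Nr3c1), which is held by heat shock protein chaperones in the cytoplasm and moves to the nucleus, where it binds DNA and raises or lowers transcription. Fkbp5, Zbtb16, Tsc22d3, Sgk1, Dusp1 and Klf9 are widely used readouts of the active receptor, and Cdkn1a and Angptl4 are induced by it in several cell types. Metallothioneins are small cysteine-rich proteins that bind zinc and copper; their genes respond to metals through the metal-responsive factor Mtf1, and also to glucocorticoids and to inflammatory cytokines. All these genes have inputs other than glucocorticoids as well, among them p53 for Cdkn1a and fasting and hypoxia for Angptl4.

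Promoter sequences are shown for the 2 metallothionein genes, which moved apart between the tumour models, for Fkbp5, which had the largest difference of the 10 genes, and for Sgk1, whose signal hardly differed between the arrays. They are from RefSeq on GRCm38.p6, cover 250 bases before to 50 bases after an annotated start, and are written 5′ to 3′ on the strand of the gene; the arrays themselves carry no genome build. Capitals mark matches, on both strands, to the metal response element core (TGCACNC or TGCGCNC), the glucocorticoid response element core (ACANNNTGT), the glucocorticoid hexamer (AGAACA) and the E-box (CACGTG). The windows are chr8:94178839-94179138 (+) for Mt1, chr8:94172368-94172667 (+) for Mt2, chr17:28486100-28486399 (−) for Fkbp5 and chr10:21993640-21993939 (+) for 1 of the 6 annotated starts of Sgk1, chosen after the matches were seen; it held the most of the 6 and the others held 1 or none.
Mt1: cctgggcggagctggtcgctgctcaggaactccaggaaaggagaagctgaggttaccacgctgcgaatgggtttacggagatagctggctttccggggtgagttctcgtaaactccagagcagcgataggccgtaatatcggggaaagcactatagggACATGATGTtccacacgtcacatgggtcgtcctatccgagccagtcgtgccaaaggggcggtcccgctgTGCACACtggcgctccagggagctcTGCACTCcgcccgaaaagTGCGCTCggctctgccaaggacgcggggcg
Mt2: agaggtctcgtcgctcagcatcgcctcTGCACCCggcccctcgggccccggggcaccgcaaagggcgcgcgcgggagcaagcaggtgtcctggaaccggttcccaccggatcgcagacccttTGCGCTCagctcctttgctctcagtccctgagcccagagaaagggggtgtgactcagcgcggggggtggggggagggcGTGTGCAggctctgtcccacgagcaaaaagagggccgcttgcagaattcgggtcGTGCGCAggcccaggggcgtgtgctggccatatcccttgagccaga
Fkbp5: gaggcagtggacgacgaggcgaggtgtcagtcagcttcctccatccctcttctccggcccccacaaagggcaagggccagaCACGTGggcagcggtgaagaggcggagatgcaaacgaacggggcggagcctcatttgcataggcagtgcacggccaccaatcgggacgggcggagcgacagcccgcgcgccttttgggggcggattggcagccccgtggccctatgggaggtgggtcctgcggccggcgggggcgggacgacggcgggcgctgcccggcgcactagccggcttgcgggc
Sgk1: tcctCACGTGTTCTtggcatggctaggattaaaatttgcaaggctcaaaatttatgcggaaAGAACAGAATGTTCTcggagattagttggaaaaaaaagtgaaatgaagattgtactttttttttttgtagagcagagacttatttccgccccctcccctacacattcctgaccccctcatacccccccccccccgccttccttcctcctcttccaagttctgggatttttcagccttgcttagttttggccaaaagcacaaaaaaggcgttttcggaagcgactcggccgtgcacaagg

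Mt2 and Mt1 lie next to each other on chromosome 8, with 6471 bases between their annotated starts. The Mt2 window held 4 matches to the metal response element core and the Mt1 window 3. Of all 32851 promoter windows of RefSeq, 25.7% held at least 1 such match, 1.97% held at least 3 and 0.517% at least 4. Mt1 also held 1 match to the glucocorticoid response element core, 92 bases before its start. That core occurred in 6.85% of all windows. In the Sgk1 window the core, 186 bases before the start, overlaps a hexamer on either side, 1 on each strand, so that the capitals there form 1 run, and a further hexamer overlaps an E-box. The Fkbp5 window held an E-box and none of the other motifs. Hexamers occurred in 19.0% and E-boxes in 7.15% of all windows. Windows were found for 8 of the 10 genes, 16 windows in all. The glucocorticoid response element core was present in 3 of the 16 windows, from 2 genes, beside 6.85% of all windows. The metal response element core was present in 4 of the 16, from 4 genes, beside 25.7% of all windows. A match describes letters and not binding, and a window without a match says nothing about sites elsewhere in the gene.

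The samples were whole lungs, so more or fewer cells of a type and more or less RNA per cell cannot be told apart. Of 11 lung epithelium markers 10 were above the floor in the B16 lung and 10 in the LLC lung, against 11 in the control lung, with Sftpc, the surfactant protein C gene, at 7482 in the B16 lung and 7296 in the LLC lung, against 6206 in the control lung. Hepatocyte markers moved with the LLC lung, and hepatocytes express metallothioneins, Fkbp5, Klf9 and Angptl4. Of 22 such markers 6 were above the floor in the B16 lung and 17 in the LLC lung, against 6 in the control lung, and their summed signal was 511 in the B16 lung and 5896 in the LLC lung, against 600 in the control lung. Alb, the albumin gene, was 1327 in the LLC lung and under the floor in the B16 and control lungs. Single markers parted in the B16 lung, where Cyp2e1, a cytochrome P450, was 127 against 273 in the control lung, and Apoa2, an apolipoprotein, 56.6 against 30.1. The part of hepatocyte RNA in the values of the 10 genes was not tested.

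The metallothioneins were high in the B16 lung. The Mt1 signal was 508 in the B16 lung and 111 in the LLC lung, against 118 in the control lung. Only the B16 lung stood out for Mt1; it was 4.31-fold above control (log2 difference 2.11), while the LLC lung lay at the control level (−0.09). Signals are linear intensities after scaling, without unit, and a log2 difference compares 1 array with another. The Mt2 signal was 1152 in the B16 lung and 429 in the LLC lung, against 266 in the control lung. Mt2 was thus 4.33-fold above control in the B16 lung (2.11) and 1.61-fold above it in the LLC lung (0.69), a graded order that Mt1 did not have. Between the tumour models, which does not involve the control array beyond its part in the scaling, Mt1 was 4.59-fold and Mt2 2.68-fold higher in the B16 lung than in the LLC lung. Mt1 and Mt2 have closely related transcripts, and how far each probe set binds the other's RNA was not tested.

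To give these differences a yardstick, genes of like signal were grouped and the spread of their B16 minus LLC log2 difference was taken, as a robust SD (the scaled median absolute deviation). It was 0.25 for genes with a mean signal above 400, 0.32 from 200 to 400, 0.41 from 100 to 200 and 0.50 from 50 to 100. Noise and true differences between the models both enter this spread, and it is no replicate error. The 2.20 of Mt1 and 1.42 of Mt2 between the models exceeded it several times over. Among the 5987 genes measured in that comparison, Mt1 had rank 18 from the highest and Mt2 rank 87.

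**Figure D1:**
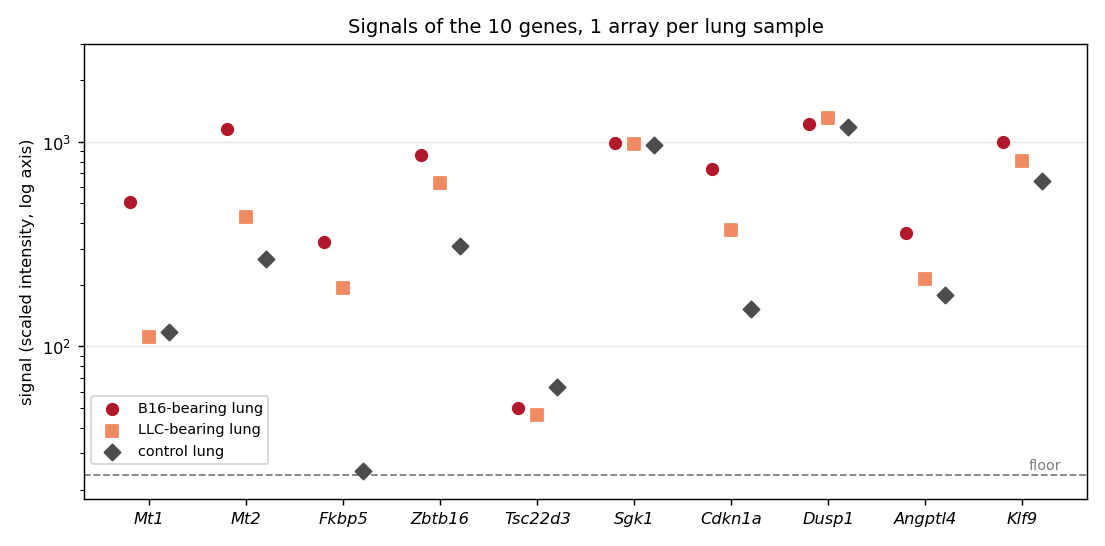
Signals of the 10 genes on the 3 arrays, from the brightest probe set of each gene, on a log axis; circles are the B16 lung, squares the LLC lung and diamonds the control lung, 1 array each, and the dashed line is the floor of 23.6. Mt1, at 508, is high in the B16 lung alone, Fkbp5 lies far above its control signal of 24.6 in both tumour-bearing lungs, and the 3 symbols of Sgk1 and of Dusp1 almost coincide.

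Fkbp5 encodes a co-chaperone that lowers the hormone affinity of the glucocorticoid receptor and is itself induced by the receptor. Its signal was 323 in the B16 lung and 192 in the LLC lung, against 24.6 in the control lung. Both tumour-bearing lungs were far above control, and the control signal stood just above the floor. The differences of 3.71 and 2.96, or 13.1-fold and 7.80-fold, ranked 2 of 5970 measured genes in the B16 lung and 7 of 6000 in the LLC lung. Their size depends on how low the control signal is taken to be. With a floor of 100 they were 1.69 and 0.94, so the LLC value then fell short of 2-fold. The B16 lung was 1.68-fold above the LLC lung (0.75), a difference that does not change with the floor; the robust SD for genes of this signal was 0.41.

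Zbtb16 encodes PLZF, a zinc finger repressor strongly induced by glucocorticoids in many cell types. Its signal on its brightest probe set was 859 in the B16 lung and 630 in the LLC lung, against 308 in the control lung. The tumour-bearing lungs were 2.79-fold and 2.05-fold above control (1.48 and 1.03). The other probe set of Zbtb16 was under the floor on all 3 arrays, so the difference rests on 1 probe set, which carries a suffix (_g) that sets it apart from a uniquely designed one.

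Tsc22d3 encodes GILZ, a leucine zipper protein that carries part of the anti-inflammatory action of glucocorticoids. Its signal was dim, 49.96 in the B16 lung and 46.1 in the LLC lung, against 63.7 in the control lung. It was the 1 gene of the 10 that lay below control in both tumour-bearing lungs (−0.35 and −0.47), beside robust SDs of 0.53 for B16 minus control and 0.45 for LLC minus control among genes of that signal. The B16 difference was smaller than its robust SD and the LLC difference slightly larger. With the floor at the 60th percentile of all signals or at 100, Tsc22d3 was under the floor throughout.

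Sgk1 encodes a kinase that keeps the epithelial sodium channel at the cell surface and is a classical early target of glucocorticoids and mineralocorticoids. Its signal was 981 in the B16 lung and 975 in the LLC lung, against 960 in the control lung. Differences from control were 0.03 and 0.02, and their sign turned with quantile normalization (−0.07 and −0.05). Dusp1 encodes a phosphatase that switches off MAP kinases and is induced both by glucocorticoids and by stress signals. Its signal was 1216 in the B16 lung and 1307 in the LLC lung, against 1183 in the control lung. These differences of 0.04 and 0.14 were smaller than the robust SDs of the same comparisons at that signal (0.29 and 0.22), and the sign of the B16 one also turned with quantile normalization (−0.07).

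Cdkn1a encodes p21, an inhibitor of cyclin-dependent kinases induced by p53 and by glucocorticoids. On its brightest probe set the signal was 738 in the B16 lung and 370 in the LLC lung, against 153 in the control lung. This is 4.83-fold and 2.42-fold above control (2.27 and 1.27). The second probe set had 158 in the B16 lung and 24.5 in the LLC lung, against a control signal under the floor. Both probe sets placed the B16 lung highest, here at least 6.72-fold above control, but the second gave no difference for the LLC lung beyond the floor. Averaged over both probe sets, the LLC difference was at least 0.66, a lower bound because the control signal of the second was under the floor.

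Angptl4 encodes a secreted inhibitor of lipoprotein lipase that responds to fasting, PPAR activation, hypoxia and glucocorticoids. Its brightest probe set had 357 in the B16 lung and 214 in the LLC lung, against 178 in the control lung. The second measured probe set had 291 in the B16 lung and 141 in the LLC lung, against 123.5 in the control lung. Both carry suffixes (_s, _f) that mark probes matching more than 1 transcript. The B16 lung was thus 2.01-fold and 2.35-fold above control on the 2 probe sets, and the LLC lung 1.20-fold and 1.14-fold. The other 2 probe sets of Angptl4 were under the floor on all arrays. Klf9 encodes a Krüppel-like transcription factor that follows glucocorticoid levels. Its brightest probe set had 1002 in the B16 lung and 806 in the LLC lung, against 643 in the control lung, or 1.56-fold and 1.25-fold above control. That probe set also carries the suffix _s, and the other one has none. The other Klf9 probe set had 190 in the B16 lung and 163 in the LLC lung, against 157 in the control lung, in the same order and closer together (1.21-fold and 1.04-fold).

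**Figure D2:**
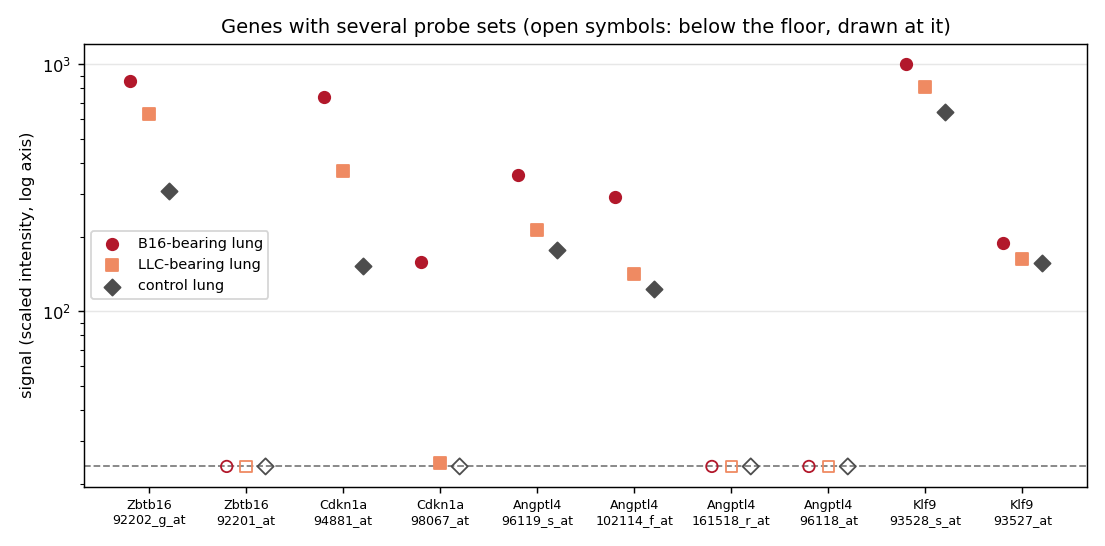
Signals of every probe set of the 4 genes with more than 1 probe set, on a log axis; circles are the B16 lung, squares the LLC lung and diamonds the control lung, and open symbols are values under the floor of 23.6, drawn at it. Where probe sets of a gene were above the floor, the B16 lung was highest in each; the second Cdkn1a probe set had 158 there and 24.5 in the LLC lung.

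By count, 6 of the 10 genes were at least 2-fold higher in the B16 lung than in control (Mt1, Mt2, Fkbp5, Zbtb16, Cdkn1a and Angptl4), and 3.23% of all 5970 measured genes were. In the LLC lung 3 of 10 were (Fkbp5, Zbtb16 and Cdkn1a), and 3.95% of all 6000 measured genes. The 3 were higher in both, against 1.13% of all genes measured in both comparisons. None of the 10 was at least 2-fold lower in the B16 lung, the LLC lung or both, where the shares of all genes were 4.72%, 2.98% and 1.39%. Between the models, 2 of 10 (Mt1 and Mt2) were at least 2-fold higher in the B16 lung than in the LLC lung and 0 lower, against 3.41% and 4.93% of all genes. Because the genes were chosen on these signals, nothing is read from these counts. Both comparisons with control use the same control array, so a low or high value there enters both.

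Angptl4 lay just inside the 2-fold line in the B16 lung at 2.01-fold and Klf9 outside it at 1.56-fold; in the LLC lung Zbtb16 lay just inside at 2.05-fold and Mt2 outside at 1.61-fold. Between the models Cdkn1a, at 1.997-fold, was just outside. The median log2 difference of the 10 genes was 1.24 in the B16 and 0.30 in the LLC lung, where all measured genes had −0.007 and −0.0007. In 7 of the 10 genes (Mt2, Fkbp5, Zbtb16, Sgk1, Cdkn1a, Angptl4 and Klf9) the B16 signal was highest and the control signal lowest, an order found in 18.1% of the 6149 genes above the floor on any array. For Sgk1 this order rests on differences of at most 0.03 on the log2 scale and turned with quantile normalization.

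**Figure D3:**
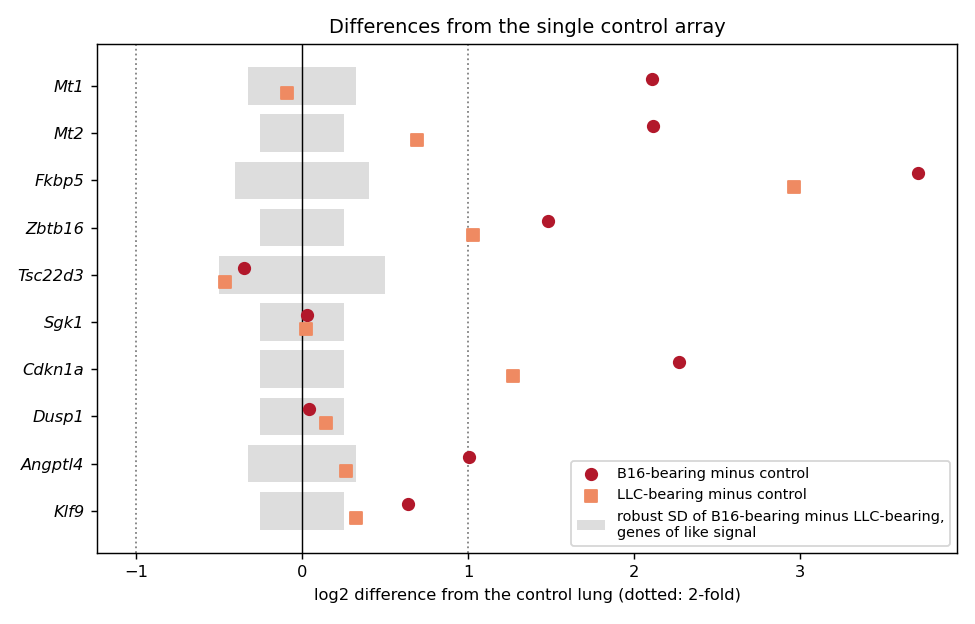
Log2 difference of each of the 10 genes from the control lung, circles for the B16 lung and squares for the LLC lung; grey bars reach 1 robust SD of the B16 minus LLC difference, among genes of like signal, to each side of 0, and dotted lines mark 2-fold. Fkbp5 lies farthest out at 3.71 and 2.96, Mt1 is far from 0 in the B16 lung only, and Tsc22d3, Sgk1 and Dusp1 lie within the grey bars.

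**Figure D4:**
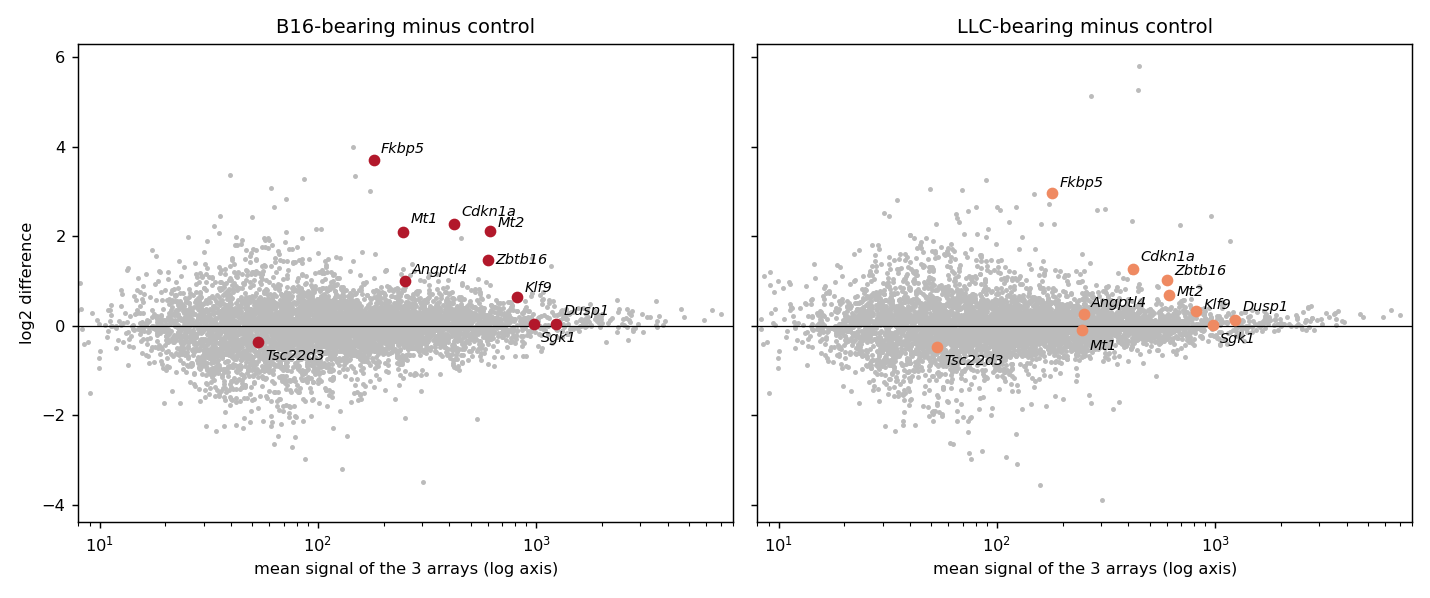
Log2 difference from control against the mean signal of the 3 arrays, on a log axis, for all measured genes (grey) and the 10 genes (coloured), in the B16 lung at left and the LLC lung at right. Dim genes spread more than bright ones; Fkbp5, Mt1, Mt2, Cdkn1a and Zbtb16 lie above the cloud in the B16 lung, and of the 10 genes Fkbp5 lies highest in both lungs.

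The machinery of the receptor was compared next. Of 22 listed genes 16 were on the array and 13 were measured, and 0 were at least 2-fold higher or lower than control in the B16 or in the LLC lung (medians 0.08 and −0.02). Nr3c1, the receptor itself, had a dim signal of 30.4 in the B16 lung and 40.4 in the LLC lung, against 59.5 in the control lung. It was lower than control in both tumour-bearing lungs, with log2 differences of −0.97 and −0.56. The robust SDs among genes of that signal were 0.64 for B16 minus control and 0.59 for LLC minus control. Serpina6, the corticosteroid-binding globulin of plasma made mainly by hepatocytes, had 59.9 in the B16 lung and 80.0 in the LLC lung, against 45.6 in the control lung. Ppid, a cyclophilin co-chaperone, and Crebbp, a histone acetyltransferase coactivator, were 123 and 124 in the B16 lung and 120 and 75.2 in the LLC lung, against 164 and 127 in the control lung.

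Other genes known to be induced by glucocorticoids had medians near 0, with members on both sides of control. Of 42 listed, 34 were measured in both comparisons, with medians of 0.14 in the B16 and 0.11 in the LLC lung. In the B16 lung 3 were at least 2-fold higher (Map3k6, Il1r2 and Hif3a) and 1 lower (Ddit4), and in the LLC lung 2 were higher (Il1r2 and Pck1) and 0 lower; Hif3a and Ddit4 are named after their values were seen. The shares of all genes were 3.23% higher and 4.72% lower in the B16 lung, and 3.95% and 2.98% in the LLC lung; the same shares stand beside the counts of the lists that follow. Map3k6, a kinase of the stress-activated pathways, had 200.3 in the B16 lung and 48.4 in the LLC lung, against 44.5 in the control lung. Of all genes searched, its pair of differences (2.17 and 0.12) was nearest to that of Mt1. Il1r2, the decoy receptor of interleukin 1 and also a gene of neutrophils, had 47.9 in the B16 lung and 87.4 in the LLC lung, against a control signal under the floor, so that the folds are at least 2.03 and 3.70.

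Pck1, the gluconeogenic enzyme of liver and kidney, was 32.7 in the B16 lung and 62.8 in the LLC lung, against 30.2 in the control lung. Snai2, a zinc finger repressor, was 105 in the B16 lung and 159 in the LLC lung, against 208.5 in the control lung. Nfil3, a transcriptional repressor, was 170 in the B16 lung and 172 in the LLC lung, against 113 in the control lung. Per1, a clock gene with a well-known receptor site, was added after its values were seen: 207 in the B16 lung and 245 in the LLC lung, against 223 in the control lung, differences of −0.11 and 0.14.

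Among genes repressed by glucocorticoids, which are mostly cytokines, chemokines and adhesion molecules, 14 of 27 were measured. Their medians were −0.02 in the B16 and 0.32 in the LLC lung. In the B16 lung 0 were at least 2-fold higher and 1 lower, and in the LLC lung 2 were higher and 0 lower. Il1b, which encodes the inflammatory cytokine interleukin 1 beta, had 48.9 in the B16 lung and 182 in the LLC lung, against 40.6 in the control lung. Mmp9, a gelatinase also stored in neutrophils, had 77.6 in the B16 lung and 150.4 in the LLC lung, against 54.0 in the control lung. Ccl5, a T cell chemokine, was 127 in the B16 lung and 414 in the LLC lung, against 349 in the control lung, so that the B16 lung alone lay lower than control (−1.46 and 0.25). Ccl3, a macrophage chemokine, was 49.1 in the B16 lung and 62.0 in the LLC lung, against 37.8 in the control lung. Of the 14 measured genes, 12 were lower and 2 higher in the B16 than in the LLC lung (median −0.32), where 47.7% of all genes were higher (median −0.02). In that comparison 17 of the other induced genes were lower and 16 higher (median −0.02). Neutrophil markers were 10 lower and 2 higher (−0.52), and macrophage and monocyte markers 8 lower and 1 higher (−0.50). Lymphocyte markers were 3 lower and 3 higher (0.06). What lies behind these splits was not tested.

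**Figure D5:**
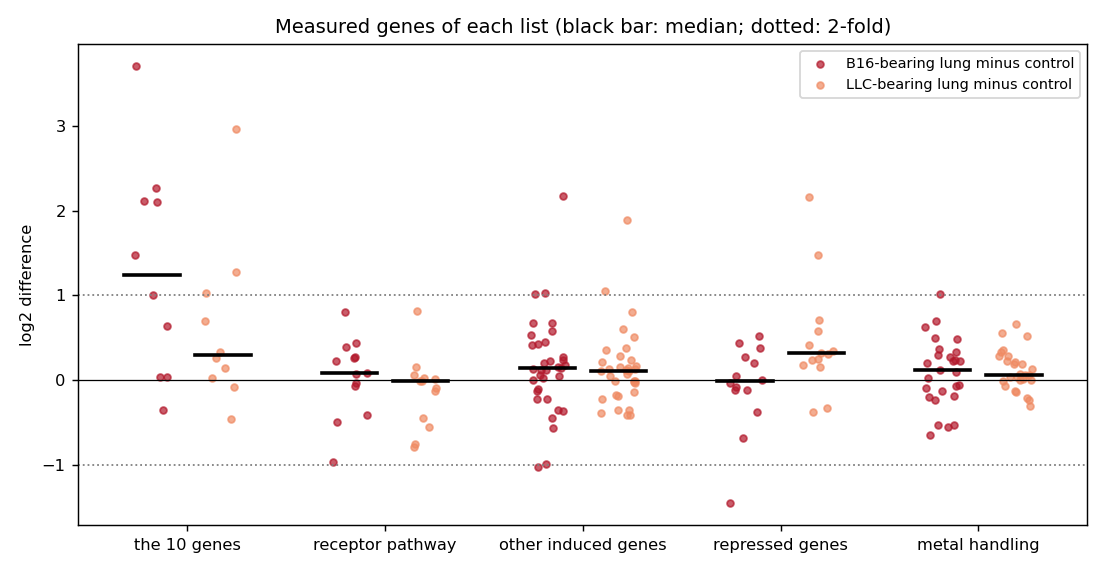
Log2 differences from control of the measured genes of 5 lists, left points of each pair for the B16 lung and right points for the LLC lung, with black bars at the medians and dotted lines at 2-fold. The 10 genes have medians of 1.24 and 0.30; the receptor pathway, the other induced genes and the metal genes have medians between −0.02 and 0.14, and the repressed genes −0.02 and 0.32.

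Genes of metal handling and metal response lay close to control as a list. Of 38 listed 27 were measured, with medians of 0.12 in the B16 and 0.06 in the LLC lung; 1 was at least 2-fold higher in the B16 lung, 0 in the LLC lung, and 0 were lower. That gene was Cp, the copper-carrying ferroxidase ceruloplasmin and an acute-phase protein, with 388 in the B16 lung and 303 in the LLC lung, against 192 in the control lung (1.02 and 0.66). Slc30a1, the zinc exporter that Mtf1 induces together with the metallothioneins, was added after its values were seen. It had 54.1 in the B16 lung and 103 in the LLC lung, against 84.8 in the control lung. Mtf1 itself was under the floor on all arrays. Mt3, the brain form of metallothionein, had 282 in the B16 lung and 271 in the LLC lung, against 239 in the control lung, and Mt4, the form of stratified epithelia, was under the floor throughout. Ccs, the copper chaperone of superoxide dismutase, Gclm, a subunit of glutamate-cysteine ligase, and Slc39a6, a zinc importer, differed from control by −0.54 to 0.55 in the tumour-bearing lungs.

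Of the FK506-binding proteins 8 were measured, with medians of −0.12 in the B16 and 0.02 in the LLC lung and 0 at least 2-fold from control. The p53 targets and cell cycle inhibitors, the company of Cdkn1a, had medians of −0.05 and −0.16; 1 of 16 was at least 2-fold higher in the B16 lung and 0 of 15 in the LLC lung. The 1 was Cdkn2d, a further inhibitor of cyclin-dependent kinases, named after its values were seen, with 74.1 in the B16 lung and under the floor in the LLC and control lungs. Ccng1, a cyclin and direct p53 target, had 76.8 in the B16 lung and 101 in the LLC lung, against 130 in the control lung. Dual-specificity phosphatases other than Dusp1 had medians of −0.08 and 0.17, the immediate early genes 0.15 and 0.07, and the relatives of Sgk1 with the sodium channel 0.12 and 0.11, with 0 genes past 2-fold. Both TSC22 relatives lay within 0.17 of control.

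PPAR target and lipid oxidation genes, the company of Angptl4, had medians of 0.14 in the B16 and 0.07 in the LLC lung, and hypoxia-induced genes 0.36 and 0.07. Ucp3, a mitochondrial carrier, was 67.9 in the B16 lung and 53.8 in the LLC lung, against 25.3 in the control lung, and Fabp3, the heart fatty acid-binding protein, 25.4 in the B16 lung and 28.6 in the LLC lung, against 65.6 in the control lung. Ndrg1, a hypoxia target, was 234 in the B16 lung and 198 in the LLC lung, against 140 in the control lung, whereas Ddit4, induced by hypoxia and by glucocorticoids, was 120 in the B16 lung and 259 in the LLC lung, against 246 in the control lung. Among Krüppel-like factors (medians 0.08 and 0.12), Klf3, a repressor, was 457 in the B16 lung and 309 in the LLC lung, against 205 in the control lung, and Klf5, a factor of epithelia, 39.99 in the B16 lung and 77.1 in the LLC lung, against 99.3 in the control lung.

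The genes most like a given one were taken as those with the smallest Euclidean distance between the pairs of log2 differences from control, among 5273 genes above the floor in both tumour-bearing lungs. Nearest to Fkbp5 was Saa3, a serum amyloid A gene of the acute phase, with 239 in the B16 lung and 183 in the LLC lung, against a control signal under the floor (distance 0.37). Next were Sprr2i (0.74), Krt6a (1.58), Igkv14-111 (1.63) and Ifngr1 (1.96). The control signals of Saa3, Igkv14-111 and Ifngr1 were under the floor, so their differences are lower bounds and these distances depend on the floor. Nearest to Mt1 after Map3k6 (0.22) was Eln, which encodes elastin, with 843 in the B16 lung and 299 in the LLC lung, against 215.5 in the control lung (0.58). Rbmx, Hoxb5 and Sh2d1b1 followed at 0.62 to 0.70. Nearest to Mt2 were Znrf4 (0.22), Nkiras2 (0.25), Eln (0.26), C8g (0.30) and Mknk1 (0.31), of which Eln had the highest signal. C8g and Mknk1 were also under the floor in the control lung, and their distances likewise depend on it. Likeness over 3 arrays that share 1 control is a description of these signals.

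Neutrophil markers were above control in both, 12 of 12 measured, with a summed signal of 3365 in the B16 lung and 5108 in the LLC lung, against 1723 in the control lung. Macrophage and monocyte markers summed to 3603 in the B16 lung and 5497 in the LLC lung, against 4530 in the control lung, and lymphocyte markers to 572 and 820, against 1117. Muscle markers summed to 961 and 902, against 1850, and adipocyte markers to 408 and 607, against 517, in the same order of lungs. Lung epithelium and endothelial markers were nearer to even, 22392 and 21515 against 20578, and 9523 and 8680 against 8238. Within the epithelial list Cbr2, a carbonyl reductase of airway cells, was 70.0 in the B16 lung and 52.5 in the LLC lung, against 782 in the control lung, and Foxa2, an epithelial transcription factor, was above the floor in the control lung alone. Markers of melanocytes, the cell type of the B16 line, and markers of dividing cells were counted together. They summed to 305 in the B16 lung and 461 in the LLC lung, against 286 in the control lung. Of 7 such markers 4 were above the floor in the B16 lung and 5 in the LLC lung, against 3 in the control lung. Dct, a melanocyte enzyme, made up 196 of the sum in the LLC lung and was under the floor in the B16 and control lungs. Tyrp1, another, was under the floor on all arrays. Pmel, a further melanocyte gene, was lowest in the LLC lung, with 78.6 in the B16 lung and 40.7 in the LLC lung, against 85.9 in the control lung. Of the genes of dividing cells, Mki67 had 52.2 in the B16 lung and 52.0 in the LLC lung, against 37.6 in the control lung. Top2a was under the floor on all arrays. The 3′ over 5′ signal ratios of the control probe sets were 1.56, 1.47 and 1.44 for actin and 1.20, 1.001 and 0.957 for Gapdh on the B16, LLC and control array. The part of cell makeup or RNA quality in the 10 genes' differences was not tested.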

How the data were processed

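The deposited intensity values, 1 for each probe set on an array, are linear, and between 20.3% and 21.1% of them lie below 0. Their trimmed means were 100.1 on each array, so as deposited they stood at a common level; the array software, its version and the summary of probes are not stated in any source used here. RNA was extracted with TRIzol and labelled with biotin, per the labels' protocols. Of 12488 probe sets 66 are controls; of the other 12422, 10833 have 1 symbol in GEO's platform annotation, 396 several and 1193 none, and only the first were named. The probe set with the highest mean signal stood for its gene. Each array was multiplied by 1 factor (0.987 for B16, 1.01 for LLC and 1 for control), chosen so that among probe sets brighter than the median the log2 ratio against control had a median of 0. Signals below the 40th percentile (23.6) were raised to it ahead of the log2 step, and a fold from below it is a lower bound. A gene was measured if above the floor on 1 of the 2 arrays compared. The gene groups were 13 lists and 9 marker lists. Named genes were all members, genes of the receptor, induced, repressed and metal lists past 2-fold in both lungs plus up to 4 by mean difference, up to 2 of each other list, up to 4 markers a list and the 5 nearest patterns. Not all genes that these rules pick from the marker lists and the smaller lists are given. Named outside these rules were Mt3, Mt4, Mtf1, Alb, Cyp2e1, Sftpc, Dct, Tyrp1, Mki67 and Top2a, and those said to be added or named after their values were seen. The members and lists were chosen with earlier results of these data known. Arrays have no depth; their number limits the precision. The scaling factor and the log2 difference from control were tested on simulated data, for the B16 array and with changes planted in bright probe sets only. The motif search was tried on a short known sequence. The floor, dim genes, the choice of probe set and the comparison between the models were not tested in this way. Python 3.11.15, numpy 2.4.6, pandas 2.3.3 and matplotlib 3.10.9 were used.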

Additional observations from a re-analysis of the deposited data

Results flagged for a closer look

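For some named genes the single B16 and the single LLC array lay on opposite sides of the control array; the difference between the models was not tested. Mt1 was the 1 gene of the 10 in this position, with log2 differences from control of 2.11 in the B16 and −0.09 in the LLC lung. Rbmx, an RNA-binding protein near Mt1 in pattern, had 1.49 and −0.03, in the same order of lungs here and below. Among glucocorticoid, hypoxia and sodium channel genes, Ccl5 had −1.46 and 0.25, Ddit4 −1.03 and 0.07, and Nedd4l, a ubiquitin ligase of the sodium channel, 0.29 and −0.51. Tsc22d1, a relative of Tsc22d3, had −0.02 and 0.11. Among markers of other cells, the adipocyte genes Adipoq and Fabp4 had −1.39 and 0.23, and −1.36 and 0.22. Of 4 measured adipocyte markers 2 were lower and 2 higher than control in the B16 lung. Lipe, 1 of the higher ones, was above control in both tumour-bearing lungs (1.48 and 0.94). The macrophage and monocyte genes Cd68 and Ccr2 had −1.38 and 0.35, and −0.75 and 2.65. Of 9 measured macrophage and monocyte markers 6 were lower and 3 higher than control in the B16 lung, and 9 were higher in the LLC lung. The leukocyte gene Ptprc had −2.45 and 0.84, and the hepatocyte gene Mup5, from a probe set of a gene family, −0.51 and 5.26; its B16 signal was under the floor, so that the first value is set by the floor and the fall is at least that large.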

How the results depend on the processing

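Every result rests on 1 array per group, so no replicate could be left out and no test made; arrays have no depth, and signal over the floor limits what can be seen. No paired analysis was possible because each group has 1 array. Of the 228 log2 differences of the 10 genes recomputed under other settings, 220 moved by less than the spread between genes of like signal, 8 moved by more, and no difference of at least 2-fold changed sign. The 8 were those of Fkbp5 from control with the floor at the 60th percentile (2.18 and 1.43) and at 100, those of Klf9 from control without suffixed probe sets (0.28 and 0.06), and those of Cdkn1a for LLC against control (0.66, a lower bound) and B16 against LLC (1.85) with the mean of probe sets. Many of the 220 could not move. All 10 genes lay above the floor on every array, so the 30 values with the lower floor at the 30th percentile were unchanged by construction. A raised floor leaves genes brighter than it unchanged, and the probe set settings leave genes with a single probe set without suffix unchanged. The 220 are therefore no measure of robustness. The number of the 10 genes past 2-fold upward in both tumour models was 3, and became 6 when the LLC array was left out, a choice made after seeing the data that leaves the B16 comparison alone. The count in the B16 lung was 6, and 5 with quantile normalization and 4 without suffixed probe sets, which leave Zbtb16 and Angptl4 unmeasured. In the LLC lung it was 3, and 2 with a floor of 100, with the mean of probe sets and without suffixed probe sets. Between the models it was 2, and 3 with the values as deposited, a factor from all probe sets, quantile normalization or the mean of probe sets, since Cdkn1a crosses the line. Counts of the other lists moved by at most 2 genes with the floor. Counts over all genes followed the floor. At the 30th percentile (9.59, added after seeing the data), the 60th (71.3) and 100, the higher genes numbered 347, 59 and 37 in the B16 lung (193 as reported), 396, 73 and 43 in the LLC lung (237), and 365, 62 and 31 between the models (204). The lower ones numbered 502, 65 and 33 (282), 359, 40 and 18 (179), and 525, 88 and 57 (295). A floor at the 20th percentile was not run, as that percentile lies at −0.51, below 0.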
